A study of Homo sapiens with 6 samples.

Results

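Non-homologous end joining genes were followed in a gastric cancer cell line of human origin, HGC27, treated with ARV-825 at 0.125 µM (n = 3) or with DMSO (n = 3). The 9 genes, chosen by symbol among the 58735 genes of the deposited table, were *XRCC6*, *XRCC5*, *PRKDC*, *DCLRE1C*, *POLL*, *XRCC4*, *LIG4*, *NHEJ1* and *TP53BP1*, and each matched 1 Ensembl identifier. ARV-825 is a bifunctional degrader that brings BET proteins, readers of acetylated histones, to cereblon and its ubiquitin ligase. The sample labels give an exposure of 48 h for ARV-825 and call the controls untreated, whereas the study's Methods name DMSO. Whether the 3 libraries per group stem from independent cultures is not stated, so every p-value reflects library-to-library spread that may be technical. RNA was measured as FPKM, the fragments of a gene per kilobase of its exons, relative to a depth scale of each library. A gene was tested when its mean FPKM over the 6 libraries was at least 1, and 13442 genes were tested. Fold changes are differences of log2(FPKM + 1), ARV-825 minus DMSO, a scale that understates the change of low genes, and adjusted p-values come from limma with Benjamini-Hochberg adjustment over all genes tested.

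Non-homologous end joining rejoins the ends of a broken DNA molecule without a homologous template and can act throughout the cell cycle. The Ku ring, made of Ku70 (*XRCC6*) and Ku80 (*XRCC5*), slides onto a broken end and recruits the catalytic kinase subunit DNA-PKcs (*PRKDC*). Artemis (*DCLRE1C*) trims ends, DNA polymerase lambda (*POLL*) fills gaps, and DNA ligase IV (*LIG4*) seals the break with its partner XRCC4 and the XRCC4-like factor XLF (*NHEJ1*). 53BP1 (*TP53BP1*) binds chromatin at breaks and shields ends from resection, the step that commits a break to homologous recombination.

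The table held the fragment depth of each library, since each FPKM value times exon length was a whole multiple of 1 step. Fragments in genes numbered 14821971 to 15201942 in the ARV-825 libraries and 16626609 to 19145661 in the DMSO libraries. The scale the authors divided by was 0.983 to 0.989 of those totals in ARV-825 libraries and 1.04 to 1.05 of them in DMSO libraries. Mitochondrial genes took 11.2% ± 1.18 of the fragments after ARV-825 and 5.90% ± 0.312 in DMSO (SD, n = 3 each), and the part of this difference in the results below was not tested, apart from a scaling without these genes that changed no call of a member. ARV-825 replicate 1 stood apart from the other two, with a chi-square of 6.68 and 6.02 for each degree of freedom against them, compared with 1.62 for ARV-825 replicate 2 against 3 and 1.76 to 2.09 for pairs of DMSO libraries. No member gained or lost its call without ARV-825 replicate 1. The epithelial markers *KRT8*, *KRT18*, *KRT19*, *EPCAM* and *CDH1* summed to 0.549 to 0.738 FPKM after ARV-825 and 0 to 0.120 FPKM in DMSO. None of the 5 reached a mean of 1 FPKM. The higher sum after ARV-825 came from *EPCAM*, at 0.602 FPKM against 0.0274 FPKM in DMSO. *CDH1* was at 0.0037 FPKM after ARV-825 and 0.0196 FPKM in DMSO, with overlapping groups. *KRT8*, *KRT18* and *KRT19* held at most 2 fragments in any library. *VIM*, a mesenchymal filament gene, stood at 247 FPKM after ARV-825 and 269 FPKM in DMSO. Of 5 gastric markers, *TFF1*, *TFF2* and *GKN1* were at 0 in all 6 libraries. Blood and endothelial markers summed to at most 1.63 and 0.0524 FPKM in any library.

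At an adjusted p under 0.05, 4 end joining genes fell after ARV-825 (*XRCC4*, *PRKDC*, *XRCC5* and *TP53BP1*) and 1 rose (*LIG4*), while *XRCC6*, *DCLRE1C* and *POLL* did not pass and *NHEJ1* was too low to be tested. Across all genes tested, 40.2% were lower and 37.0% higher by the same rule, so the share of end joining genes that fell, 4 of 8, lay near the background. With an absolute log2 fold change above 1 required as well, 0 of the 8 were lower or higher, against 12.1% lower and 8.81% higher among all genes. The 3 ARV-825 libraries lay below all 3 DMSO libraries for 5 members and above them for 2, against 41.6% and 38.5% of all genes tested. The median of the 8 members was −0.12 on the log2 scale, and that of all genes tested was −0.02. A two-sided exact permutation test of 3 libraries against 3 cannot go below 0.1, and it gave 0.1 for each tested member except *XRCC6*, which had 0.9. In bulk RNA, a lower level may reflect less RNA per cell or fewer cells that express the gene, which cannot be told apart here.

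**Figure D1:**
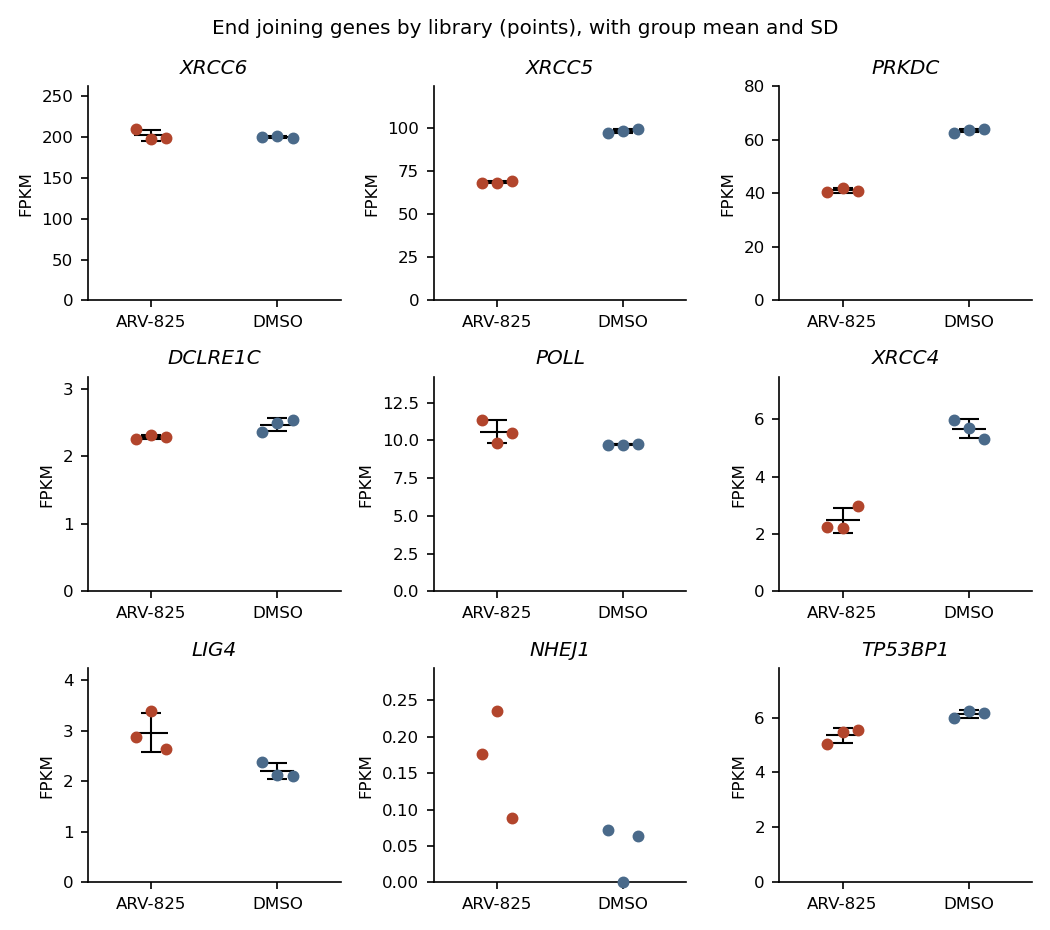
FPKM of the 9 end joining genes in each library, with ARV-825 left of DMSO in every panel and each vertical axis starting at 0. Points are libraries, and the horizontal line and bars are the group mean and SD (n = 3), left out for *NHEJ1*, which was not tested. *XRCC5*, *PRKDC* and *XRCC4* show the clearest gaps between groups, and the *XRCC6* groups overlap.

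A promoter table from RefSeq on GRCh38.p14 was matched for 7 of the 9 members (*XRCC5* and *PRKDC* were not searched). The 250 bases before 1 start per gene were searched on both strands for 6 motifs chosen with earlier results of these data known. *LIG4* had 5 listed starts, and *DCLRE1C*, *POLL* and *NHEJ1* had 2 each, so the windows do not cover every start of these genes. The ETS core CCGGAAG, bound by ETS-family activators of many housekeeping genes, was found in *POLL*, *XRCC4*, *LIG4* and *TP53BP1*, and in 8.52% of 35116 promoter windows of the same length. These 4 stretches of 30 bases are shown because the motif is shared by the member that fell most (*XRCC4*) and the member that rose (*LIG4*), with the ETS core in capitals on either strand.
POLL, chr10:101588271-101588300 on the minus strand: tggcaaccgttccagagggtcaCTTCCGGc
XRCC4, chr5:83077344-83077373 on the plus strand: agccacatcaccCTTCCGGggctcaggcgg
LIG4, chr13:108218474-108218503 on the minus strand: gctgtggccccaCTTCCGGcccccgctcgg
TP53BP1, chr15:43510669-43510698 on the minus strand: gttgcctcggcgCCGGAAGaagcttctagt
The cores begin 8, 191, 142 and 46 bases before the RefSeq start. In GENCODE the *XRCC4* stretch lies in an untranslated exon of *TMEM167A* and the *LIG4* stretch in one of *ABHD13*, both on the opposite strand, whereas that of *POLL* lies just upstream of the gene and that of *TP53BP1* inside its annotated 5′ end. *XRCC6* held none, but held 2 copies of the CRE core TGACGT, part of the element bound by CREB and ATF factors. They begin 180 and 43 bases before its RefSeq start, and the motif was found in 7.10% of windows. Both copies are shown, in capitals, because *XRCC6* was the most abundant member and its groups overlapped. In GENCODE *XRCC6* starts at 41621119, so the first stretch spans that start and the second lies inside the annotated gene.
XRCC6, chr22:41621103-41621132 on the plus strand: tgcttacagtccTGACGTaggaaggggcgg
XRCC6, chr22:41621240-41621269 on the plus strand: gcacatgcgtgaTGACGTagagggcgttga
The E-box CACGTG, bound by MYC with MAX, was in none of the 7 windows and in 6.34% of all windows, and the E2F motifs TTTCCCGC and TTTGGCGC were in none of the 7 and in 1.93% of all. CCAAT stood in *XRCC6*, *DCLRE1C* and *TP53BP1* (32.01% of all windows), and the GC box GGGCGG in *XRCC6*, *DCLRE1C*, *XRCC4*, *NHEJ1* and *TP53BP1* (42.6% of all). A match is only a run of letters in a window, and binding was not measured.

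A gene on the opposite strand starts within 1000 bases of the start of 5 members, looked up after the members' values had been seen. *PRKDC* faces *MCM4*, a subunit of the replicative helicase, whose start lies 2 bases away. *MCM4* stood at 11.5 ± 0.155 FPKM after ARV-825 and 52.7 ± 0.715 FPKM in DMSO (SD, n = 3 each) and fell by 2.11 on the log2 scale (adjusted p = 7.0e-08), against 0.61 for *PRKDC*. *DESI1* starts 23 bases from *XRCC6* and fell by 0.48 (adjusted p = 0.00019), where *XRCC6* did not pass, and *TMEM167A* starts 365 bases from *XRCC4* and fell by 0.58 (adjusted p = 2.0e-05), as *XRCC4* also fell. *MAP1A*, which encodes a microtubule-associated protein, starts 230 bases from *TP53BP1* and rose by 1.47 (adjusted p = 7.1e-07), where *TP53BP1* fell. *ABHD13*, 11 bases from *LIG4*, had a log2 fold change of 0.17 (adjusted p = 0.039) that was −0.06 after rescaling to TPM (adjusted p = 0.49).

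Both Ku genes were among the more abundant transcripts of the pathway, and within this dimer *XRCC5* fell while *XRCC6* did not pass the test. *XRCC6* (chromosome 22, 41621119 to 41664048 on the plus strand, GRCh38) stood at 210.2, 197.2 and 199.3 FPKM in ARV-825 replicates 1, 2 and 3, against 200.7, 201.7 and 198.97 FPKM in DMSO replicates 1, 2 and 3. The groups overlapped, and the log2 fold change was 0.01 (SE 0.036, adjusted p = 0.77). *XRCC6* fell by 0.30 on the log2 scale when values were rescaled to TPM (adjusted p = 0.00093), a scaling that also moved the median of all genes to −0.31. Without ARV-825 replicate 1, the highest library, the fold change was −0.02 (adjusted p = 0.48). The 5 annotated *XRCC6* pseudogenes held at most 5 fragments in any library, against at least 9588 for *XRCC6*.

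*XRCC5* (chromosome 2, 216107464 to 216206303 on the plus strand) stood at 68.4, 68.4 and 69.4 FPKM after ARV-825, against 97.4, 98.2 and 99.6 FPKM in DMSO. Every ARV-825 library lay below every DMSO library, and the gap was far wider than the spread within a group. The mean after ARV-825 was 0.699 of that in DMSO (log2 fold change −0.51, SE 0.029, adjusted p = 5.0e-06), and it rested on 5451 to 5618 fragments per ARV-825 library and 9231 to 10985 in DMSO ones. The ratio of *XRCC6* to *XRCC5* within a library, which does not depend on how libraries are scaled, was 3.07, 2.88 and 2.87 after ARV-825 and 2.06, 2.06 and 1.997 in DMSO. The mean ratio was thus 2.94 ± 0.113 after ARV-825 against 2.04 ± 0.0348 in DMSO (SD, n = 3 each), a log2 difference of 0.53 (SE 0.035), with no overlap between groups.

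*PRKDC*, on chromosome 8, encodes the kinase that Ku brings to the break and that phosphorylates Artemis and other repair proteins. It stood at 40.4, 42.1 and 41.0 FPKM after ARV-825, against 62.8, 63.7 and 64.1 FPKM in DMSO. It fell to 0.648 of the DMSO mean (log2 fold change −0.61, SE 0.032, adjusted p = 3.3e-06), with 9086 to 9756 fragments per ARV-825 library and 16895 to 19955 in DMSO ones. *PRKDC* and *XRCC5* fell by similar amounts, and their ratio differed less than that of the Ku pair. The ratio of *PRKDC* to *XRCC5* was 0.599 ± 0.0144 after ARV-825 and 0.645 ± 0.0027 in DMSO (SD, n = 3 each), a log2 difference of −0.11 (SE 0.020) with groups that did not overlap.

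Neither end-processing gene passed the test on the deposited values. *DCLRE1C* (chromosome 10, 14897359 to 14954432, minus strand) stood at 2.26, 2.31 and 2.28 FPKM after ARV-825, against 2.35, 2.50 and 2.54 FPKM in DMSO. The groups did not overlap, but the log2 fold change of −0.08 (SE 0.054) did not pass (adjusted p = 0.23), and only 208 to 220 fragments per ARV-825 library and 267 to 324 in DMSO ones lay behind it. It passed as lower after rescaling to TPM (−0.37, adjusted p = 0.0020) and with voom on the fragments (−0.20, adjusted p = 0.043). Its exons share 2.51% of their bases with *SUV39H2* on the other strand, which fell by 0.63. Relative to *PRKDC*, whose product activates Artemis, the *DCLRE1C* ratio was 0.0555 ± 0.00044 after ARV-825 and 0.0388 ± 0.0011 in DMSO (SD, n = 3 each), a log2 difference of 0.52 (SE 0.025).

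*POLL* (chromosome 10, 101578882 to 101588270, minus strand) stood at 11.4, 9.84 and 10.5 FPKM after ARV-825, against 9.71, 9.72 and 9.75 FPKM in DMSO. The ARV-825 libraries lay above the DMSO libraries but spread over a wider range, and the log2 fold change of 0.11 (SE 0.054) did not pass (adjusted p = 0.11). The value turned with the scaling, being −0.19 after rescaling to TPM (adjusted p = 0.040) and 0.19 with quantile normalization (adjusted p = 0.011). Without ARV-825 replicate 2 it was 0.15 (adjusted p = 0.031). Part of the *POLL* exons, 4.48%, overlaps *DPCD* on the other strand, which had a log2 fold change of 0.26, and the TruSeq RNA kit named in the labels does not mark strand.

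Within the ligase pair *XRCC4* fell and *LIG4* rose, although the rise of *LIG4* was lost after rescaling to TPM. *XRCC4* (chromosome 5, 83077498 to 83353787, plus strand) had the largest fold change of the tested members, with 2.23, 2.21 and 2.99 FPKM after ARV-825, against 5.98, 5.71 and 5.33 FPKM in DMSO. All 3 ARV-825 libraries lay well below the DMSO libraries, and the mean after ARV-825 was 0.436 of that in DMSO (log2 fold change −0.95, SE 0.095, adjusted p = 8.6e-05). The fragments numbered 87, 89 and 117 after ARV-825 and 287, 263 and 288 in DMSO. With a pseudocount of 0.1 in place of 1 the log2 fold change was −1.18, past the threshold of 1, so the absence of a member past both thresholds depends on how low values are shrunk.

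*LIG4* (chromosome 13, 108207439 to 108218368, minus strand) stood at 2.88, 3.40 and 2.63 FPKM after ARV-825, against 2.39, 2.12 and 2.11 FPKM in DMSO. The groups did not overlap, and the mean after ARV-825 was 1.35 times that in DMSO (log2 fold change 0.30, SE 0.085, adjusted p = 0.014). The underlying fragments did overlap, with 184, 224 and 169 after ARV-825 and 188, 160 and 187 in DMSO, so the difference appears once values are scaled for depth. After rescaling to TPM the log2 fold change was 0.10 and no longer passed (adjusted p = 0.42). The ratio of *LIG4* to *XRCC4* within a library was 1.29, 1.53 and 0.881 after ARV-825 and 0.400, 0.371 and 0.396 in DMSO. The log2 difference of the ratios was 1.63 (SE 0.24), the largest of the 5 ratios computed, and the lowest ARV-825 library still had more than the highest DMSO library. All ratios use FPKM without the added 1, so for low genes their log2 differences are larger than the fold changes would give.

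*NHEJ1* (chromosome 2, 219075317 to 219160865, minus strand) was listed at 0.176, 0.235 and 0.0879 FPKM after ARV-825, from 8, 11 and 4 fragments, and at 0.0718, 0 and 0.0637 FPKM in DMSO, from 4, 0 and 4 fragments. These counts are too few for a comparison. Of the *NHEJ1* exon bases, 65.4% lie in the gene *AC068946.1* on the same strand, which was itself listed at 0.118 to 0.300 FPKM after ARV-825 and 0.0120 to 0.04997 FPKM in DMSO. No source used here gives how fragments shared by both genes were counted, so the level of *NHEJ1* is uncertain.

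*TP53BP1* (chromosome 15, 43403061 to 43510728, minus strand) stood at 5.04, 5.49 and 5.54 FPKM after ARV-825, against 5.98, 6.24 and 6.18 FPKM in DMSO. The groups did not overlap, and the decrease was small, to 0.873 of the DMSO mean (log2 fold change −0.17, SE 0.048, adjusted p = 0.016). The call was lost without DMSO replicate 2 (adjusted p = 0.060), without DMSO replicate 3 (adjusted p = 0.057) and with quantile normalization (log2 fold change −0.10, adjusted p = 0.10). Some 28.7% of its exon bases overlap *TUBGCP4* on the opposite strand, which fell by 0.36, and the part of these shared bases in the *TP53BP1* value was not tested. *BRCA1*, whose product promotes resection and opposes 53BP1, fell by 1.32 (SE 0.070, adjusted p = 4.0e-06). The ratio of *BRCA1* to *TP53BP1* was 0.397 ± 0.0247 after ARV-825 and 1.11 ± 0.0635 in DMSO (SD, n = 3 each), a log2 difference of −1.48 (SE 0.070).

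**Figure D2:**
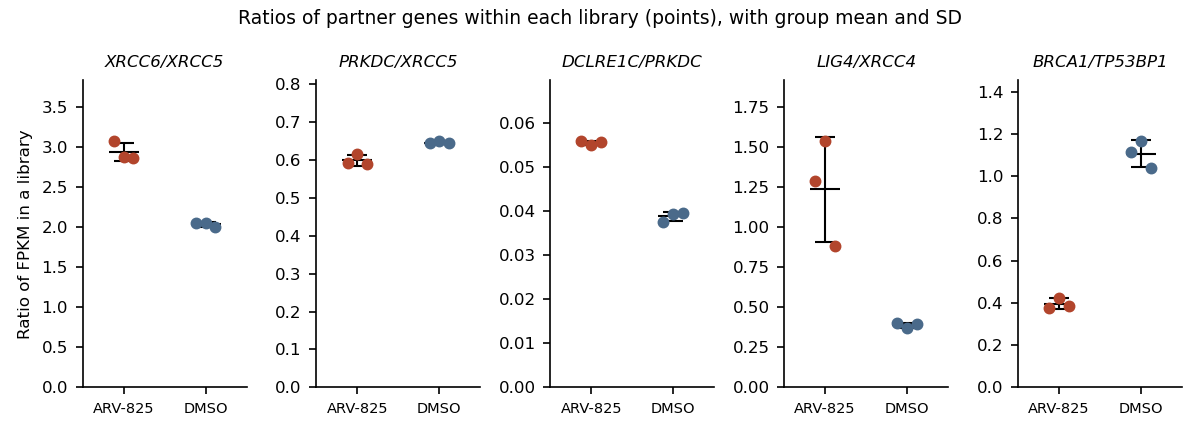
Ratio of the FPKM values of 2 genes within each library, with ARV-825 left of DMSO and axes starting at 0. Points are libraries, and the line and bars are the group mean and SD (n = 3). The groups do not overlap in any of the 5 ratios, and *LIG4*/*XRCC4* has the widest spread after ARV-825, from 0.881 to 1.53.

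Of 6 ratios planned, *NHEJ1* to *XRCC4* was not computed because *NHEJ1* was at 0 in 1 DMSO library. Each of the other 5 had an exact two-sided permutation p of 0.1, the smallest this design allows, and 0.1 after Benjamini-Hochberg adjustment over the 5.

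The order of the members by level was similar in both groups. FPKM is a level per exon length, so genes can be compared within a library. The comparison is less certain for *NHEJ1* and *TP53BP1*, which share 65.4% and 28.7% of their exon bases with other genes. After ARV-825 the means ran from *XRCC6* (202.2 FPKM) through *XRCC5* (68.8), *PRKDC* (41.2), *POLL* (10.6) and *TP53BP1* (5.36) to *LIG4* (2.97), *XRCC4* (2.48), *DCLRE1C* (2.28) and *NHEJ1*. In DMSO the order was *XRCC6* (200.5 FPKM), *XRCC5* (98.4), *PRKDC* (63.5), *POLL* (9.73), *TP53BP1* (6.14), *XRCC4* (5.67), *DCLRE1C* (2.46), *LIG4* (2.21) and *NHEJ1*. The libraries overlapped between *LIG4* and *XRCC4* and between *XRCC4* and *DCLRE1C* after ARV-825, and between *TP53BP1* and *XRCC4* and between *DCLRE1C* and *LIG4* in DMSO. The 9 genes summed to 335.9 ± 6.18 FPKM after ARV-825 and 388.6 ± 1.23 FPKM in DMSO (SD, n = 3 each). *XRCC6* alone made up 60.2% of that sum after ARV-825 and 51.6% in DMSO.

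Because the FPKM values of a library summed to more after ARV-825 (348808.1 to 360661.7) than in DMSO (282667.1 to 294346.3), rescaling every library to the same sum, as TPM does, lowers all ARV-825 values together. All genes tested then had a median of −0.31 (log2), against −0.02 on the deposited scale. Measured from the median of all genes, the members other than *XRCC4* and *LIG4* moved little under the 6 scalings, and these 2 low genes moved more. The small movement is largely built in and is no separate support for the calls. TPM, fragment totals and the scaling without mitochondrial genes multiply each library by a constant, which subtracting the median of all genes mostly removes. *XRCC6* lay 0.01 to 0.03 above that median, *XRCC5* −0.52 to −0.49 from it, *PRKDC* −0.62 to −0.56 and *LIG4* 0.29 to 0.44. *XRCC4* lay −1.19 to −0.93 from it.

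**Figure D3:**
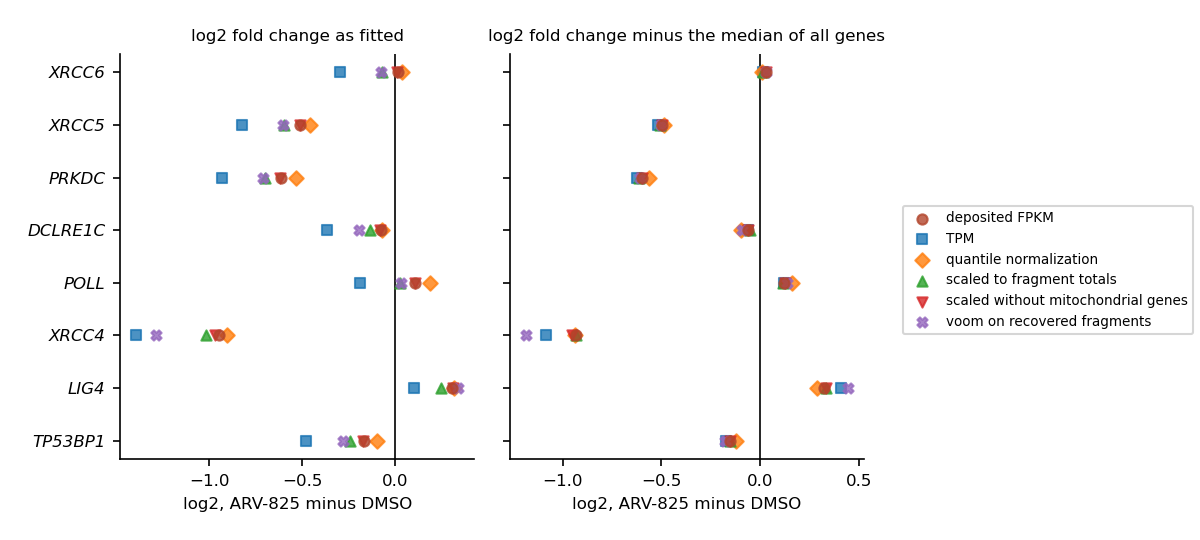
Log2 fold changes of the 8 tested members (ARV-825 minus DMSO) under 6 scalings of the libraries, as fitted on the left and after subtracting the median of all genes tested on the right. Each marker is 1 scaling, and the vertical line is 0. On the left the TPM values lie lowest, with *XRCC6* at −0.30 and *POLL* at −0.19, and on the right the markers of *XRCC6* lie within 0.01 to 0.03.

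Accessory factors of the pathway split in direction, as the members did. Of 10 genes on this list 8 were tested, of which 3 fell, 2 rose and 3 did not pass, against the background of 40.2% lower and 37.0% higher, and the list median was −0.05 on the log2 scale. *PAXX*, which encodes a Ku-binding paralogue of XRCC4 and XLF, had the largest change, with 12.3 ± 2.26 FPKM after ARV-825 and 31.7 ± 0.371 FPKM in DMSO (SD, n = 3 each; log2 fold change −1.31, SE 0.11, adjusted p = 4.2e-05). *ERCC6L2*, a helicase-like factor linked to end joining, rose by 0.65, and *CYREN*, which encodes an inhibitor of end joining, fell by 0.38. The helicase gene *WRN* fell by 0.27 (adjusted p = 0.027) but not with quantile normalization (adjusted p = 0.081). *APTX*, *TDP2* and *POLM* had log2 fold changes of −0.01, 0.10 and −0.09 and did not pass. *APLF* was at 0.490 FPKM after ARV-825 and 0.0686 FPKM in DMSO, and *DNTT*, the template-independent polymerase of lymphocytes, had at most 1 fragment in a library, so neither was tested.

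On the end-protection side, where 53BP1 acts through RIF1, shieldin and the CST complex, 10 of 11 genes were tested, of which 6 fell and 3 rose, against 40.2% lower and 37.0% higher among all genes tested, with a list median of −0.46. The shieldin genes *SHLD2* and *MAD2L2* stood at 4.94 ± 0.391 and 6.19 ± 0.643 FPKM after ARV-825, against 12.1 ± 0.549 and 13.6 ± 0.910 FPKM in DMSO (SD, n = 3 each). They fell by 1.15 and 1.03 (adjusted p = 4.0e-06 and 2.0e-05), and *SHLD1* fell by 0.67, while *SHLD3* did not pass (−0.14, adjusted p = 0.37). *RIF1* fell by 0.74 and *PAXIP1*, whose product PTIP is the other effector of phosphorylated 53BP1, by 0.72, where *TP53BP1* fell by 0.17. *DYNLL1*, a 53BP1-binding light chain, fell by 0.25. The genes that rose were *NUDT16L1* (0.72), whose product TIRR holds 53BP1 off chromatin, and the CST subunit genes *STN1* (0.76) and *CTC1* (0.26), of which *CTC1* was at 0.01 after rescaling to TPM (adjusted p = 0.91). *TEN1*, the third CST subunit, was too low to be tested, and 75.4% of its exon bases lie in *TEN1-CDK3* on the same strand, so its level is uncertain.

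Break signalling genes, whose products sense breaks or mark the chromatin around them, fell in 6 of 9 cases and rose in none, with a median of −0.39. Among all genes tested, 40.2% were lower and 37.0% higher. *H2AX*, the histone variant phosphorylated at breaks, stood at 78.9 ± 4.71 FPKM after ARV-825 and 122.4 ± 0.628 FPKM in DMSO (SD, n = 3 each), and fell by 0.63 on the log2 scale (SE 0.047, adjusted p = 1.9e-05). *NBN* and *MRE11*, 2 subunits of the sensor complex that also starts resection, fell by 0.80 and 0.65, the adaptor gene *MDC1* by 0.62, and the ubiquitin ligase genes *RNF168* and *RNF8* by 0.39 and 0.32. *ATM*, *RAD50* and *UBE2N* did not pass on the deposited values (0.07, −0.07 and −0.08), but each passed as lower after rescaling to TPM. Most *RAD50* exon bases, 79.7%, lie in another gene on the same strand, so its level is uncertain.

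The alternative routes to repair had lower list medians than the members, a difference that was not tested. Of the 7 alternative end joining genes 6 fell, against 40.2% of all genes tested, with a median of −0.99, and *XRCC1* did not pass (0.11, adjusted p = 0.16). *POLQ*, the polymerase that defines this route, stood at 0.536 ± 0.0941 FPKM after ARV-825 and 2.06 ± 0.140 FPKM in DMSO (SD, n = 3 each; log2 fold change −0.99, SE 0.085, adjusted p = 3.8e-05). *FEN1*, *LIG1* and *PARP2* had log2 fold changes of −1.57, −1.51 and −1.45, *LIG3* of −0.88 and *PARP1* of −0.16, a decrease that did not pass with quantile normalization (adjusted p = 0.31). Among 12 genes of resection and homologous recombination, all 11 tested fell, against the same 40.2%, with a median of −0.99, the largest decreases being in *EXO1* (−2.05), *XRCC2* (−1.79) and *BLM* (−1.47). Of the exon bases of *LIG3*, *UBE2N* and *XRCC3*, 30.5%, 39.5% and 76.7% overlap genes on the opposite strand. The same holds for 23.2% of those of *CYREN*, 23.6% of *MCM2* and 17.5% of *XRCC1*. Smaller overlaps, such as 10.9% in *SHLD2*, are not all given. The part of such shared bases in the values was not tested.

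**Figure D4:**
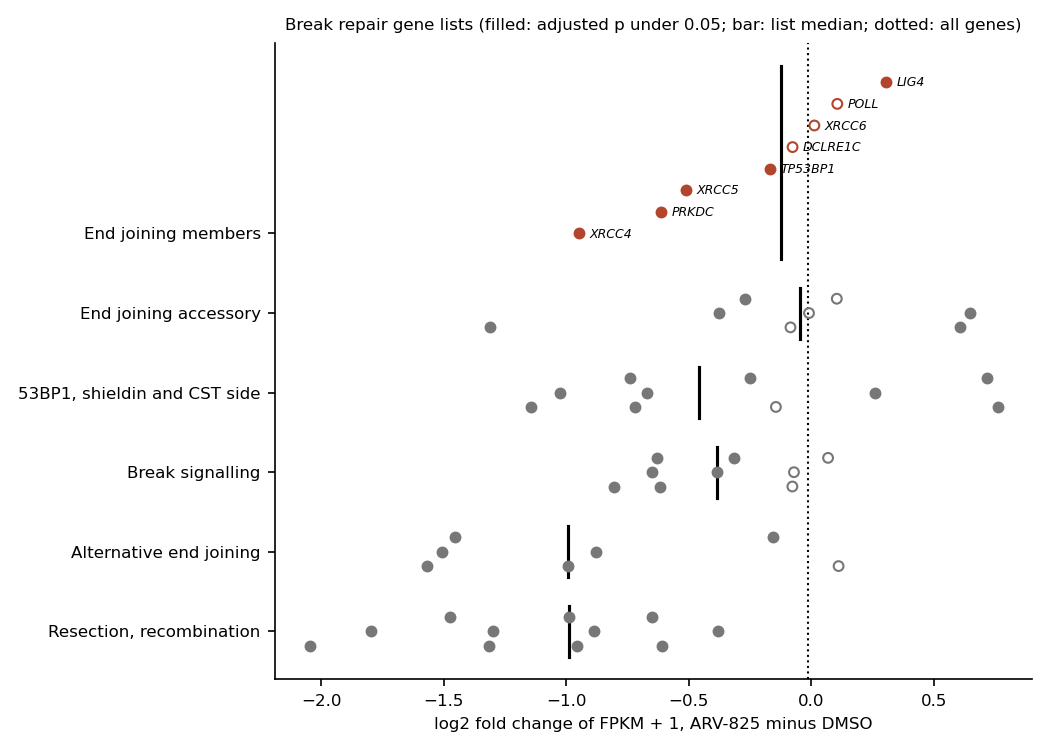
Log2 fold change of each tested gene (ARV-825 minus DMSO, on log2(FPKM + 1)) in 6 lists of break repair genes, 1 list per row, with the 8 tested members named in the top row. Filled points passed an adjusted p of 0.05, open points did not, the bar is the list median and the dotted line the median of all genes tested. The members lie on both sides of the dotted line, from −0.95 to 0.30, whereas all 11 recombination genes lie below it, from −2.05 to −0.38.

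Many break repair genes are expressed most in cycling cells. All 6 proliferation markers fell, against 40.2% of all genes tested. Their sum was 162.3 to 169.0 FPKM after ARV-825 and 467.1 to 474.2 FPKM in DMSO. *TOP2A*, *MCM2* and *MKI67* had log2 fold changes of −1.93, −1.899 and −1.59. *MKI67*, the gene of the Ki-67 antigen, stood at 9.16 ± 0.285 FPKM after ARV-825 and 29.5 ± 0.160 FPKM in DMSO (SD, n = 3 each). The part of this shift in the levels of the end joining genes was not tested. The fibroblast and matrix markers *COL1A1*, *COL1A2*, *DCN*, *LUM* and *PDGFRB* summed to 85.8 to 87.4 FPKM after ARV-825 and 245.9 to 246.9 FPKM in DMSO. All 5 fell, against the same 40.2% of all genes tested.

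*CRBN*, which encodes cereblon, the ligase subunit that ARV-825 binds, stood at 3.16 ± 0.475 FPKM after ARV-825 and 3.19 ± 0.0988 FPKM in DMSO (SD, n = 3 each; log2 fold change −0.02, adjusted p = 0.85), and passed as lower after rescaling to TPM (−0.31, adjusted p = 0.026). ARV-825 acts on BET protein, which RNA does not measure.

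The genes most like *XRCC4*, the member with the largest change, were found by correlating log2(FPKM + 1) over the 6 libraries. They were *UCHL5* (r = 0.9995), *FAM241B* (r = 0.9986) and *KMT5A* (r = 0.9984). *UCHL5*, which encodes a proteasome-bound deubiquitinase, stood at 3.65 FPKM after ARV-825 and 6.24 FPKM in DMSO. *FAM241B* stood at 1.27 FPKM after ARV-825 and 4.60 FPKM in DMSO, and *KMT5A*, a histone H4 lysine methyltransferase gene, at 3.77 FPKM after ARV-825 and 7.54 FPKM in DMSO. The 6 points fall into the 2 groups and share their libraries, so such values describe mainly the difference between groups.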

How the data were processed

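RNA-seq of HGC27 cells exposed to ARV-825 (125 nM, n = 3) or DMSO (n = 3) was analysed from 1 table with 1 column per library. The authors deposited FPKM values. Per the submitters' notes, the tool was HISAT2 2.0.5 and the build mm10, a mouse genome, yet all 58735 identifiers are human and found in GENCODE 29, which gave exon lengths and GRCh38 coordinates. No source used here names the counting tool. Exon length times FPKM gave the fragments, of which 100% of those above 0 were within 0.05 of whole.

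The 13442 genes whose mean FPKM reached 1 were compared with limma 3.58.1 in R 4.3.3 (lmFit, eBayes with an intensity trend, no covariate) on log2(FPKM + 1), with Benjamini-Hochberg adjustment. Ratios and single members were compared by exact two-sided permutation. Ratios were taken on FPKM with no pseudocount, and their SE comes from the spread of the ratio itself, not from limma.

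All members were named. So were all accessory, end-protection, signalling and alternative end joining genes, the 3 most changed genes each of the recombination and proliferation lists with *BRCA1* and *MKI67*, the 3 genes most like the most changed member, and *CRBN*. Some genes that this rule takes are not reported here. The members and lists were chosen with earlier results of these data known. Other genes named (annotated neighbours, pseudogenes, *VIM*) were added after their values were seen.

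The 18 alternatives covered the pseudocount, filter, scaling, variance model, gene class, voom, the replicate block and each replicate left out.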

Additional observations from a re-analysis of the deposited data

How the results depend on the processing

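The calls of *XRCC5*, *PRKDC* and *XRCC4* held under all 18 alternatives, and 131 of 144 refitted member values kept their direction and side of the threshold. That total includes values whose direction could not change. The filter settings, the fit without an intensity trend, protein-coding genes alone and the replicate block leave each fold change as it was. *XRCC6* also changed sign, without passing, with fragment totals (−0.074), voom (−0.075) and without ARV-825 replicate 1 (−0.016). Scaling mattered most. Under TPM 0 members were higher and 7 lower, against 23.6% higher and 53.7% lower among all genes, with a member median of −0.43, and *XRCC6* (−0.30) and *POLL* (−0.19) changed sign and passed, because TPM lowers all ARV-825 values together. With quantile normalization 2 members were higher and 3 lower, against 39.7% higher and 38.0% lower among all genes. The member median was then −0.084, and that of all genes tested 0.028. *XRCC4* was the 1 member lower past both thresholds under pseudocounts of 0.1 and 0.01, TPM, fragment totals and voom, where the member medians were −0.15, −0.15, −0.43, −0.19 and −0.24. The medians of all genes tested in these 5 settings were −0.020, −0.021, −0.31, −0.088 and −0.10. Leaving out each replicate gave 1 to 2 members higher, 0 to 1 lower past both thresholds (1 without ARV-825 replicate 3) and medians of −0.14 to −0.10. In those fits 4656 to 5070 of the 13442 genes tested were higher, and their medians were −0.021 to −0.015. TPM left 3176 of all genes higher, against 4977. With the replicate block 1 member was higher and 4 lower, as without it, against 4870 higher and 5279 lower of the 13442 genes tested. Residuals of same-numbered libraries correlated at 0.0042, 0.041 and 0.038, so the numbers were not taken as pairs. Each of the 5 ratios was recomputed in 7 alternatives (0.5 fragment added, and each replicate left out) and kept its direction. As the groups did not overlap in any ratio, leaving out a library could not change a direction. Depth limits *NHEJ1*, with 0 to 11 fragments in a library, and *XRCC4*, *LIG4* and *DCLRE1C*, with at most 324.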
